A study of Mus musculus with 6 samples.

Results

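Tmem108, Tdrp, Nsg2, Dapl1, Igfbp4, Gpr132 and Zfp318 were followed here through tumour-infiltrating CD8 T cells. The 7 genes, of 15601 in the deposited count table, were chosen by their levels, mostly as genes high in cluster 7 of the deposited clustering or standing on a list of naive T cell genes, and were labelled little-known genes of memory-like CD8 cells. All 7 were found in the table. Since measured levels chose them, their levels by cluster are given as a description without a test. For Gpr132 and Zfp318 the data went against that label, since their level in cluster 7 was 1.16 and 1.02 times the mean of the other 10 clusters.

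The cells came from tumours of MB49, a mouse urothelial carcinoma line, grown under the skin of wild-type C57BL/6 mice of both sexes. Mice were inoculated at 6 weeks of age with 500000 tumour cells (the labels also give an age of 6 to 8 weeks), and tumours were taken on day 10. Live cells with CD3 and CD8 and without CD4 on their surface were sorted and sequenced with a 10x Genomics kit for 3′ ends. There were 3 libraries from female hosts (numbered 2, 5 and 6 in the cell names) and 3 from male hosts (numbered 1, 3 and 4), and no host carried a transgene or received a treatment according to the labels. Which library number is which labelled replicate was not given in the sources used here.

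A CD8 T cell that has not met its antigen, or that persists as a central memory cell, circulates through lymph nodes guided by the chemokine receptor encoded by Ccr7. It keeps the transcription factors encoded by Tcf7 and Lef1, which sustain self-renewal. In tumours and chronic infection, a stem-like fraction of the responding CD8 cells also keeps Tcf7, while other cells under lasting stimulation lose it. Both kinds can carry the inhibitory receptor PD-1, the product of Pdcd1. Some of the genes followed here are known mainly from other tissues. Igfbp4 encodes a secreted protein that binds insulin-like growth factors. Gpr132 encodes a G protein-coupled receptor that responds to lysophospholipids. Tmem108 encodes a transmembrane protein of neurons that acts in endosomal transport, and Nsg2 encodes a vesicle protein of neurons that acts in receptor trafficking. Dapl1 encodes a small protein related to death-associated protein, Tdrp encodes a nuclear protein of the testis, and Zfp318 encodes a zinc finger protein that mature B cells need to make IgD.

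On the mm10 build with GENCODE M21 annotation, all 7 are protein-coding. Igfbp4 lies at chr11:99041244-99054392 on the plus strand, Dapl1 at chr2:59484653-59505020 on the plus strand, and Nsg2 at chr11:32000463-32059202 on the plus strand. Tmem108 lies at chr9:103482947-103761837 on the minus strand, Tdrp at chr8:13952008-13975032 on the minus strand, Gpr132 at chr12:112850873-112868228 on the minus strand and Zfp318 at chr17:46383731-46420920 on the plus strand. The Tmem108 and Zfp318 models overlap other gene models, none of which is in the count table. The stretch of 250 bases before the start was read from RefSeq (GRCm38.p6) for 6 of the 7 genes, with 8 start sites in all. It is shown for 4 of the genes that were high in cluster 7, because outside clusters 2 and 7 their levels were higher in cells with Tcf7. It was searched on both strands for CTTTGAA and CTTTGAT (bound by TCF and LEF factors), CACACCC (KLF), CCGGAAG (ETS), TGTTTAC (FOXO) and CAGCTG (an E box). Capitals mark a match. The first is Igfbp4 (chr11:99040994-99041243, plus strand), the second Dapl1 (chr2:59484403-59484652, plus strand), the third Tmem108 at its outer start (chr9:103761838-103762087, minus strand) and the last Nsg2 at its outer start (chr11:32000169-32000418, plus strand).
Igfbp4: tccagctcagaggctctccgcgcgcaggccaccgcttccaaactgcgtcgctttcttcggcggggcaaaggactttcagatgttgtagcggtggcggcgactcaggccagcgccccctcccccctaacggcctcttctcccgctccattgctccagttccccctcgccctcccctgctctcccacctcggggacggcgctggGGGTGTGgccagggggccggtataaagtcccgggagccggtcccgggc
Dapl1: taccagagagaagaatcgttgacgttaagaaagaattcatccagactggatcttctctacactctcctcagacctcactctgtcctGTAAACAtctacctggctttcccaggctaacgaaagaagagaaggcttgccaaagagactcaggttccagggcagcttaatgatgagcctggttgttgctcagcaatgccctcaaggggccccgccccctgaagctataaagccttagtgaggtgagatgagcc
Tmem108: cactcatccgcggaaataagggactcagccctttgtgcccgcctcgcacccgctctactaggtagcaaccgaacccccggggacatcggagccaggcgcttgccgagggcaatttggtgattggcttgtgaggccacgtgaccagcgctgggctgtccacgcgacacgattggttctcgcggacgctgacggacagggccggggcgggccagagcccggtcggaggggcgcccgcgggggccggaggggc
Nsg2: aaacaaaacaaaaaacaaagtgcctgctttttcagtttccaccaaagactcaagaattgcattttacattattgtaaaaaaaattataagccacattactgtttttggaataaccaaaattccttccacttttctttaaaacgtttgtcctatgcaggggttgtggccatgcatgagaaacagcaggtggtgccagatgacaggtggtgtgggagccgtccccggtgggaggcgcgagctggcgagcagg
The Igfbp4 window held GGGTGTG, the reverse of the KLF motif, beginning 48 bases before the start, and the Dapl1 window held GTAAACA, the reverse of the FOXO motif, beginning 164 bases before it. The Tmem108 and Nsg2 windows shown held none of these letters. The KLF motif also occurred 197 bases before the inner start of Tmem108 and 100 bases before that of Zfp318, and the E box 28 bases before that of Gpr132. Neither TCF and LEF motif was found in any of the 8 windows. Among all 32851 windows of this length, 7.48% held a TCF and LEF motif, 6.93% the KLF motif, 6.91% the ETS motif, 3.17% the FOXO motif and 13.0% the E box. The share of G and C was 69.2% for Igfbp4 and this Tmem108 start, 50% for Dapl1 and 43.6% for this Nsg2 start, beside a median of 52.4% over all windows.

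The deposited table held 26698 cells and 295211042 unique molecular identifiers (UMIs, each counting 1 captured transcript). Library medians lay between 6397.5 and 10114.5 UMIs per cell. Cd3d had a UMI in 97.0% of cells, Cd8a in 87.5% and Cd4 in 0.176%. Cluster 7 held 1752 cells, 96 to 713 per library, with 3 genes of the naive and central memory list, Tcf7 and Ccr7 among them, in the 10 genes highest there against the rest, and is called naive or central memory-like. The same 10 included Igfbp4, Dapl1 and Tmem108. All 15 genes of the naive and central memory list together did not set cluster 7 apart from cluster 2. They summed to 4949 CPM in cluster 7 (4477 to 5272) and 5008 CPM in cluster 2 (4662 to 5454). Cluster 2 is called innate-like from Klra7, Fcer1g, Klrb1c and Tyrobp, cluster 3 proliferating-like from Cdk1, Birc5 and Ube2c, and cluster 9 interferon-stimulated-like from 6 of its 10 leading genes. The others are called by number, and of these clusters 6 and 10 had medians of only 1742 and 1461 UMIs per cell, with 30.0% and 20.3% mitochondrial UMIs. The libraries shared 84 cell barcodes, which covered 169 cells. In cluster 7, Cd4, Foxp3, Ccr8, Pax5 and Dcn had no UMI.

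Igfbp4 and Dapl1 were the genes whose level set cluster 7 apart. Levels are in CPM, the usual scaling of a count by the total of its sample, computed here from the summed UMIs of all cells of a library and cluster. Igfbp4 stood at 48.4, 29.5 and 35.6 CPM in cluster 7 of the male libraries 1, 3 and 4, and at 30.6, 15.1 and 51.4 CPM in the female libraries 2, 5 and 6. Every library had its highest Igfbp4 level in cluster 7, and the female libraries held both the lowest and the highest value. The mean was 35.1 ± 13.4 CPM (SD, n = 6), which is 16.0 times the mean of the other clusters and 12.4 times that of innate-like cluster 2. The next cluster in the order was 9, at 6.44 ± 6.93 CPM, and its libraries overlapped those of cluster 7. The 9 remaining clusters lay between 0.550 and 2.84 CPM, and each overlapped its neighbour in the order.

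Dapl1 stood at 95.7, 91.3 and 99.8 CPM in cluster 7 of male libraries 1, 3 and 4, and at 77.5, 139 and 104 CPM in female libraries 2, 5 and 6. It was highest in cluster 7 in 6 of 6 libraries, with a mean of 101 ± 20.8 CPM, and this was the only place in the orders of the 7 genes where neighbours did not overlap. Cluster 9 followed at 30.2 ± 12.7 CPM and cluster 1, led by Gzmm, Ccl5, Klf2 and S1pr1, at 29.6 ± 16.7 CPM. Innate-like cluster 2 ranked 8 of 11, at 9.71 ± 3.36 CPM, and the ranges of Tcf7 overlapped between clusters 2 and 7. Tcf7 stood at 333 ± 47.9 CPM in cluster 7 and 342 ± 58.1 CPM in cluster 2.

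Tmem108, Tdrp and Nsg2 were high in both clusters 7 and 2. Tmem108 stood at 30.8 ± 4.30 CPM in cluster 7 (23.0 to 35.3) and 32.3 ± 8.02 CPM in cluster 2 (24.6 to 43.5), with cluster 7 the higher in 3 of 6 libraries. For Tdrp the means were 29.8 ± 4.73 CPM in cluster 7 and 28.5 ± 7.24 CPM in cluster 2, with cluster 7 the higher in 2 of 6. Nsg2 had means of 72.2 ± 12.2 CPM in cluster 7 and 83 ± 13.7 CPM in cluster 2, with cluster 7 the higher in 1 of 6. The ranges of the pair of clusters overlapped for all 3 genes. Interferon-stimulated-like cluster 9 was next for each, at 12.5 ± 7.78 CPM for Tmem108, 19.1 ± 12.2 CPM for Tdrp and 42.4 ± 25.3 CPM for Nsg2. The lowest level of these 3 genes, and of Dapl1 and Igfbp4, was in cluster 8, whose leading genes are Gzmc and Gzmf. Between the highest and lowest cluster the ratio was 81.6 for Tdrp, 63.8 for Igfbp4, 59.0 for Tmem108, 43.1 for Dapl1 and 22.6 for Nsg2.

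Gpr132 and Zfp318 were spread over all clusters. Gpr132 ranged from 46.2 ± 7.75 CPM in cluster 3 to 136 ± 32.3 CPM in cluster 10, and its level of 102 ± 22.2 CPM in cluster 7 ranked 5 of 11. It stood higher in innate-like cluster 2, at 130 ± 17.8 CPM, than in cluster 7 in 6 of 6 libraries. Zfp318 ranged from 13.3 ± 2.10 CPM in cluster 5 to 45.5 ± 10.5 CPM in cluster 10, and its 23.6 ± 8.04 CPM in cluster 7 ranked 6 of 11. Cluster 10 is a cluster of few UMIs per cell, and its part in these orders was not tested. Without it, each gene was highest in cluster 2.

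**Figure D1:**
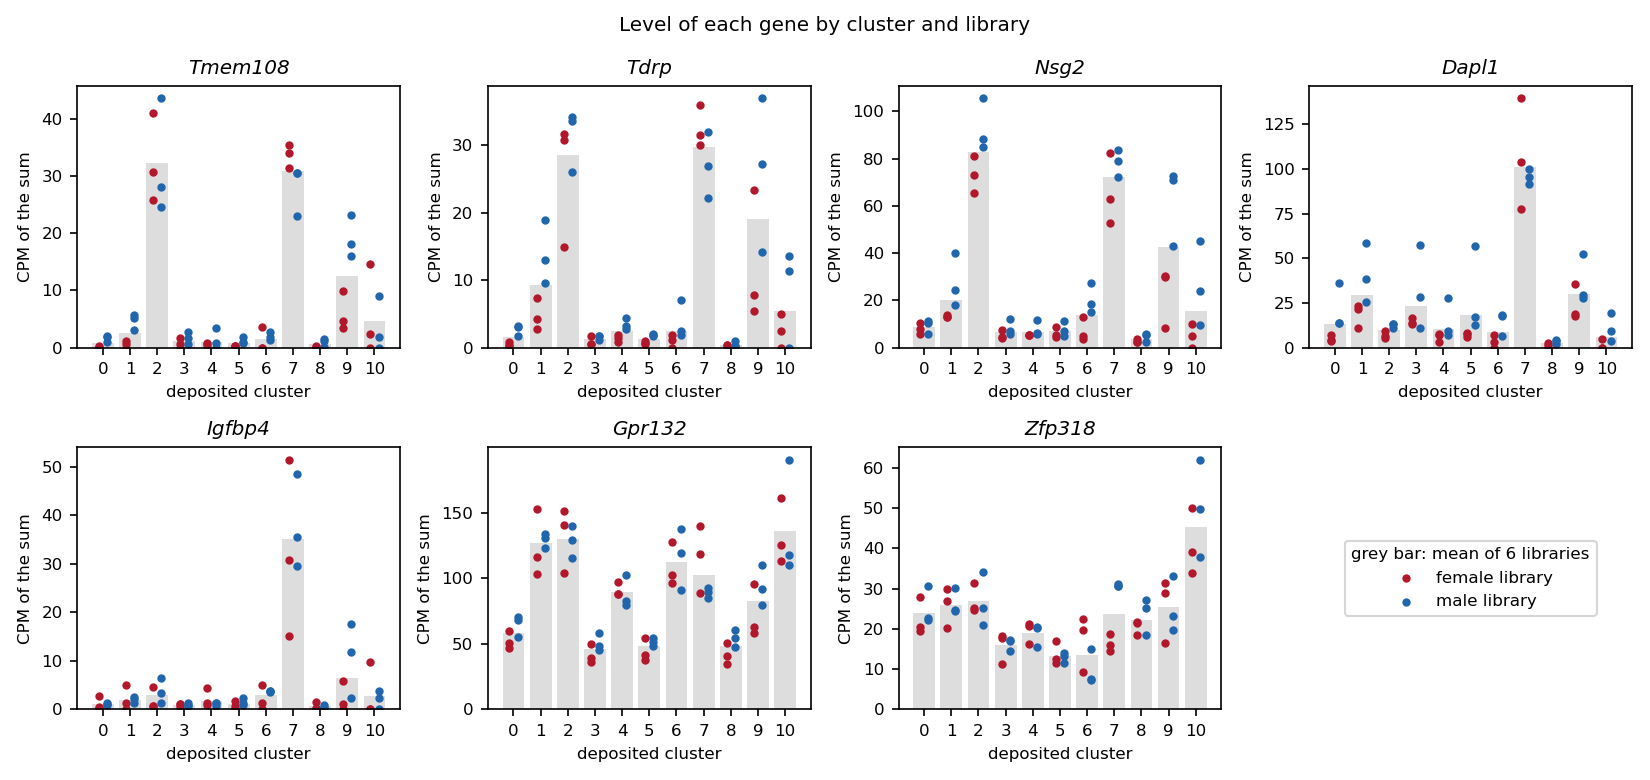
Level of each gene (y axis, CPM of the summed cells, linear from 0) in each deposited cluster (x axis), with 1 point per library (red female, blue male) and a grey bar for the mean of 6 libraries. Igfbp4 and Dapl1 have 1 tall bar, at cluster 7, Tmem108, Tdrp and Nsg2 have tall bars at clusters 2 and 7, and Gpr132 and Zfp318 have no cluster near 0.

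The origin of each gene's UMIs set Igfbp4 apart, while Dapl1 had a share from cluster 7 like those of Tdrp and Nsg2. Cluster 7 held 4.93% of all UMIs and 58.3% of the 978 UMIs of Igfbp4. It held 29.3% of the 1478 Tmem108 UMIs, 23.4% of the 1816 Tdrp UMIs and 20.3% of the 5517 Nsg2 UMIs, while cluster 2 held 42.6%, 34.6% and 33.9% of them. Of the 6256 Dapl1 UMIs, 22.6% came from cluster 7 and 26.0% from proliferating-like cluster 3, which held 22.9% of all UMIs. For Gpr132 (20619 UMIs) and Zfp318 (6067 UMIs) the share from cluster 7 was 6.64% and 6.68%.

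**Figure D2:**
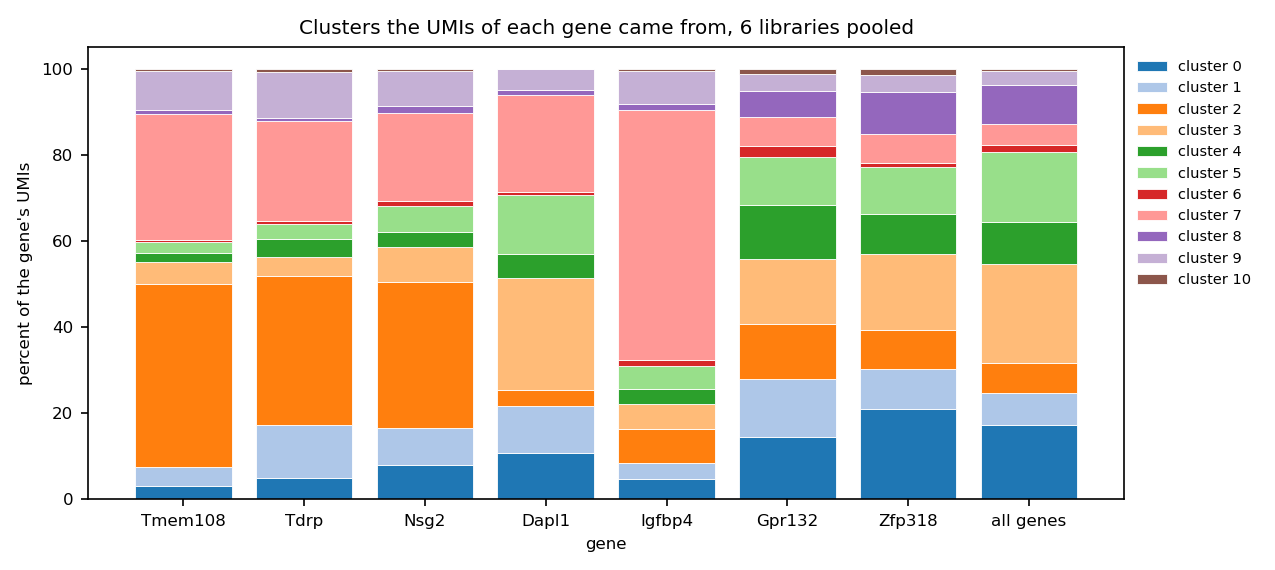
Share of each gene's UMIs (y axis, percent) by deposited cluster (colours), with the 6 libraries pooled, and of all UMIs in the last bar. Cluster 7 makes up 58.3% of the Igfbp4 bar and 6.64% of the Gpr132 bar, and clusters 2 and 7 together dominate the Tmem108 bar.

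Single cells showed few of these transcripts, and how many depended on depth. To compare clusters of unequal depth, cells were thinned to 2000 UMIs, which left 1733 of 1752 cells in cluster 7 and 1688 of 1695 in cluster 8 but only 785 of 2034 in cluster 6 and 294 of 1137 in cluster 10. After thinning, Dapl1 had a UMI in 13.7% ± 2.63 of the cells of cluster 7 (SD, n = 6), 1.97% of cluster 2 and 0.407% of cluster 8, which served as the background. Before thinning these shares were 26.1%, 3.64% and 1.77%, at median depths of 7465, 5936 and 13987 UMIs. Igfbp4 was detected in 4.79% ± 1.75 of thinned cells of cluster 7, 0.418% of cluster 2 and 0.292% of cluster 8 (13.5%, 1.42% and 0.849% before thinning). After thinning, its share in cluster 2 was close to that background, while that of Dapl1 stood above it. By CPM, both genes had a higher mean in cluster 2 than in cluster 8. Igfbp4 stood at 2.825 against 0.550 CPM and Dapl1 at 9.71 against 2.35 CPM. The library ranges of these 2 clusters overlapped for Igfbp4 and not for Dapl1.

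Tmem108 was detected in 5.35% of thinned cells in cluster 7 and 5.46% in cluster 2, against 0.111% in cluster 8 (21.0%, 16.8% and 0.662% before thinning). For Tdrp the thinned shares were 6.72%, 5.97% and 0.0358% (19.9%, 16.4% and 0.602% before), and for Nsg2 15.5%, 16.2% and 0.886% (42.0%, 38.6% and 4.79% before). These 3 genes marked the cells of both clusters at like rates. Gpr132 was detected in 19.8%, 24.2% and 7.66% of thinned cells (50.9%, 51.3% and 46.6% before) and Zfp318 in 5.24%, 5.23% and 5.30% (16.1%, 14.7% and 25.5% before). For Zfp318 the share in cluster 7 was thus no higher than in cluster 8. Of the cells of cluster 7, 47.4% had none of the 7 genes after thinning and 13.1% before, and 2.48% and 29.3% had 3 or more. Of the thinned cells of cluster 7, 37.4% had at least 1 of the first 5 genes (Tmem108, Tdrp, Nsg2, Dapl1 and Igfbp4) and 7.39% at least 2, against 28.2% and 2.44% in cluster 2, and 5.51% and 0.451% in cells outside both.

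Dapl1 differed from the others in that a small number of cells outside cluster 7 held many of its UMIs. A cell with Dapl1 carried on average 7.67 Dapl1 UMIs in cluster 3 and 5.57 in cluster 5, against 2.96 in cluster 7, and single cells carried up to 54 in cluster 3 and 63 in cluster 4. Outside clusters 2 and 7, 280 cells held 5 or more, of which 116 came from male library 1, 67 from male library 4 and 28 or fewer from each of the rest. In these 280 cells, 22.1% had a Tcf7 UMI and 33.6% a Ccr7 UMI after thinning, beside 8.13% and 6.41% of the 18465 cells kept without Dapl1. In the 766 cells kept with 1 to 4 Dapl1 UMIs the shares were 23.1% and 20.9%. The Tcf7 share was thus no higher in the 280 cells than in those with fewer Dapl1 UMIs. The 280 cells were also deep, with a median of 22412 UMIs against 8505 in cells without Dapl1, and 149 of them were in clusters 3 and 5. The thinned shares take that depth into account for Tcf7 and Ccr7, but not for the choice of cells by their Dapl1 UMIs.

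Co-detection with Tcf7 was counted in thinned cells as the number of cells with both transcripts over the number expected within each library and cluster if they were independent. Outside clusters 2 and 7 the ratio was 1.78 for Dapl1 (105 cells against 59 expected), 1.76 for Tmem108 (35 against 19.9), 1.71 for Nsg2 (142 against 83) and 1.66 for Tdrp (71 against 42.8). It was above 1 in 6 of 6 libraries for each of these 4 genes, and for Gpr132, where it was 1.15. Igfbp4 had a ratio of 1.52, on 17 cells, above 1 in 3 libraries, and Zfp318 had 0.971. Within cluster 7, where 46.1% of thinned cells had Tcf7, only Dapl1 stood above 1 in all libraries (1.21, range 1.03 to 1.56). The ratios there were 1.17 for Tmem108, 1.01 for Tdrp and Gpr132, 0.972 for Nsg2, 0.865 for Igfbp4 and 0.831 for Zfp318.

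Cells outside clusters 2 and 7 were then divided into those with and without a Tcf7 UMI, and the counts of each set were summed per library, which gives 4388 and 17432 cells. These clusters were drawn with all genes in view and were pooled here with no term for cluster. The comparison thus takes in differences between these clusters as well as within them. Of the 7 genes, 6 were higher in the cells with Tcf7 (edgeR quasi-likelihood test with the library as a block, Benjamini-Hochberg adjustment over all genes), in a comparison that called 41.6% of 11106 genes, 20.2% higher. Zfp318 did not pass. With the library as a block, these p-values measure how far the difference within a library varied from library to library. The same holds for the splits and the interaction that follow. In the comparisons of male with female hosts, the p-values measure the spread between libraries. Either spread may in part be technical.

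Tmem108 lay between 1.97 and 11 CPM in the cells with Tcf7 (median 5.36) and between 0 and 0.711 CPM in those without (median 0.296), with no UMI in female library 6, where a count of 0 allows up to 0.158 CPM. All 6 libraries were higher with Tcf7 and the ranges did not overlap (log2 fold change 4.10, SE 0.274, adjusted p = 6.36e-08). Dapl1 lay between 37.5 and 87.8 CPM (median 44.7) against 2.52 to 16.7 CPM (median 4.31), again without overlap, and male library 1 was highest in both sets (log2 fold change 3.07, SE 0.298, adjusted p = 0.000680). Tdrp lay between 5.30 and 13.3 CPM (median 9.30) against 0.473 to 2.02 CPM (median 0.766), also without overlap (log2 fold change 3.13, SE 0.183, adjusted p = 9.22e-09). Nsg2, at 18.9 to 36.7 CPM (median 26.9) against 3.15 to 6.32 CPM (median 4.28), did not overlap either (log2 fold change 2.59, SE 0.161, adjusted p = 7.07e-06).

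Igfbp4 was low outside cluster 7. It lay between 1.52 and 5.17 CPM with Tcf7 (median 3.40) and between 0.266 and 1.89 CPM without it (median 0.592), higher with Tcf7 in 6 of 6 libraries, though the ranges overlapped (log2 fold change 2.29, SE 0.204, adjusted p = 1.32e-07). Gpr132, the receptor gene, lay between 77.5 and 101 CPM (median 93.1) against 47.1 to 66.5 CPM (median 57.2), with no overlap and a smaller log2 fold change of 0.67 (SE 0.05, adjusted p = 3.01e-08). Zfp318 overlapped fully, at 15.2 to 24.3 CPM against 15.2 to 21.4 CPM (log2 fold change 0.07, adjusted p = 0.355).

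**Figure D3:**
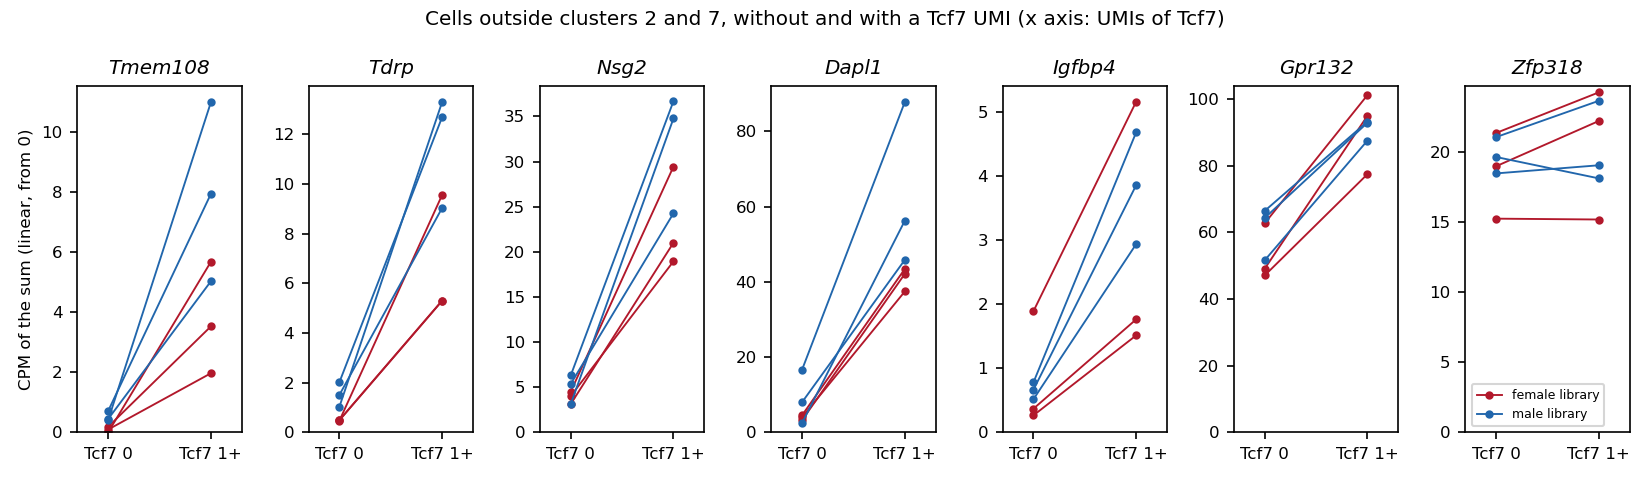
Level of each gene (y axes, CPM, linear from 0) in cells outside clusters 2 and 7 without a Tcf7 UMI (left) and with at least 1 (right), where each line is 1 library (red female, blue male). All 6 lines rise for 6 of the genes, and those of Zfp318 are nearly level.

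The 2 sets differed in which clusters they came from: 36.3% of the cells with Tcf7 were in cluster 1 and 15.6% in cluster 9, against 11.5% and 3.40% of those without. Their depth was alike, with library medians of 6815.5 to 10672 and 7014 to 10910 UMIs. Cells with Tcf7 were also matched 1 to 1 with cells without it of the same library and cluster and of the nearest depth. Where cells with Tcf7 were the more numerous, the surplus was left out, as in cluster 1 of male library 1 (485 of 848 cells). After matching, 5 genes still passed, with log2 fold changes of 2.93 for Tmem108, 2.43 for Dapl1, 2.17 for Nsg2, 2.15 for Tdrp and 0.46 for Gpr132, while Igfbp4 was too low to be tested. Within cluster 1 alone, an alternative added with the data in view, Dapl1 (2.47), Nsg2 (1.75) and Gpr132 (0.32) passed and Zfp318 did not (-0.19), with 3 genes too low to be tested. Within cluster 9 alone, likewise added, Dapl1 (2.96), Nsg2 (2.33), Tdrp (1.82) and Gpr132 (0.59) passed. The whole split called 41.6% of 11106 genes, and the share called is not given here for the matched cells or the single clusters.

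Genes of the known naive and central memory program moved with them. Of the 15 genes of that list, Tcf7 itself was left out and 14 of 14 were higher in the cells with Tcf7, with a median log2 fold change of 0.96 against -0.01 over all genes tested. Among them, Bach2, a transcription factor gene, had 1.05 (adjusted p = 1.56e-06), Actn1, an actin crosslinker gene, 0.99, and Foxp1, a quiescence factor gene, 0.71 (edgeR). Of the 13 genes of the stem-like list, 8 of 12 were higher, led by Id3, an inhibitor of DNA-binding factors, at 2.88 and Cxcr5, a chemokine receptor gene, at 2.73, with a median of 0.64. Of 7 fibroblast and endothelial markers, 6 were measured and all 6 had a UMI in cells with Tcf7, at a summed 14.8 to 24.8 CPM against 5.53 to 11.2 CPM, with Dcn at 0 in cells without Tcf7. Of 7 B cell markers, 3 were measured, at 5.03 to 9.56 CPM with Tcf7 (Pax5 at 0) and 3.04 to 5.72 CPM without. Of 7 gamma-delta T cell markers, 3 were measured, at 1.94 to 5.77 CPM with Tcf7 and 0.647 to 1.46 CPM without (Sox13 at 0). In every deposited cluster the highest gene of these lists was Pecam1, Cd79b and Cd163l1, respectively. In cluster 1 these had means of 21.98 of a summed 23.02 CPM, 11.47 of 11.55 CPM and 9.295 of 9.458 CPM. The part of these markers in the result was not tested.

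Within cluster 7, where most cells had a Tcf7 UMI, the same division gave no call among the 7 genes (0.187% of 5359 genes called, 10 in all, and 462 genes at an unadjusted p under 0.05; DESeq2 called 3 genes). It used 5 libraries, because female library 6 had only 5 cells without Tcf7. Dapl1 was higher with Tcf7 in 5 of 5 libraries, at 83.9 to 145 CPM against 31.9 to 101.5 CPM, and the difference did not pass (log2 fold change 0.61, SE 0.167, adjusted p = 0.140). For Tdrp, also higher in 5 of 5, the log2 fold change was 0.82 (adjusted p = 0.309), and for the rest it lay between -0.33 and 0.34. The cells without Tcf7 were the shallower, with library medians of 4189 to 7259 UMIs against 6091 to 9616.5, and their part in the result was not tested. Of the naive and central memory list, 2 of 14 genes were higher, Ccr7 at 0.86 and Actn1 at 1.21, with a median of 0.34.

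Cells of cluster 7 with a UMI of Pdcd1, 15 to 81 per library, carried less of 5 of the 7 genes than those without, in a comparison that called 11.6% of 5731 genes, 6.09% lower. Igfbp4 lay between 0 and 27.7 CPM in the cells with Pdcd1 (median 18.1) and between 22 and 59.6 CPM in those without (median 35.8), lower in 6 of 6 libraries (log2 fold change -1.40, SE 0.271, adjusted p = 0.000430). It had no UMI in the Pdcd1 cells of male library 3 and female library 5, where a count of 0 allows up to 8.73 and 11.1 CPM. Dapl1 lay between 37.0 and 100.3 CPM (median 56.3) against 83.5 to 157 CPM (median 106), lower in 6 of 6 libraries (log2 fold change -0.92, SE 0.137, adjusted p = 5.09e-07). The ranges of both genes overlapped slightly, although each library showed the same direction.

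Nsg2, at 30.8 to 76.3 CPM against 56.4 to 93.2 CPM, was lower in 5 of 6 libraries (log2 fold change -0.56, SE 0.150, adjusted p = 0.00699). Tdrp was lower in 5 of 6, all but male library 1 (log2 fold change -0.75, SE 0.233, adjusted p = 0.0229), and Gpr132 in 5 of 6 (-0.38, SE 0.131, adjusted p = 0.0414). Tmem108 was lower in 6 of 6 and did not pass (-0.60, adjusted p = 0.0579), and Zfp318 had -0.13 (adjusted p = 0.794). With cells matched for depth, 3 of the 7 genes could be tested: Dapl1 passed (-0.89, adjusted p = 0.00185), Nsg2 did not (-0.46, adjusted p = 0.248), and Gpr132 had the opposite sign (0.09, adjusted p = 0.919). The call of Nsg2 was lost without male library 4 (-0.46, adjusted p = 0.0828). That of Tdrp was lost without any one of libraries 2, 3, 4 and 5 (-0.72 to -0.60, adjusted p from 0.0522 to 0.131), and that of Gpr132 without any one of libraries 2, 3, 4, 5 and 6 (-0.45 to -0.29, adjusted p from 0.0517 to 0.197). DESeq2 called none of these 3 genes (adjusted p of 0.0668 for Nsg2, 0.0959 for Tdrp and 0.186 for Gpr132).

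In the same comparison 13 of the 15 naive and central memory genes were lower with Pdcd1, with a median of -0.60 against 0.01 over all genes tested. Txk, a T cell kinase gene, had -0.76, Bcl2, a survival gene, -0.72, and Satb1, a chromatin organiser gene, -0.57. Cells with Pdcd1 were the deeper, with library medians of 7025 to 11635 UMIs against 5624.5 to 9240.5. All 11 natural killer markers were measured and summed to 535 to 684 CPM with Pdcd1 (Ncr1, Klra8 and Zbtb16 at 0) against 200 to 557 CPM without. All 6 markers of CD4 and regulatory T cells summed to 21.5 to 86.2 CPM against 11.8 to 27.2 CPM, with Cd4, Foxp3 and Ccr8 at 0 in both. Over all cells of cluster 7 the highest of the 6 was Il2ra, with a mean of 16.1 of a summed 23.1 CPM. The part of these in the result was not tested.

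**Figure D4:**
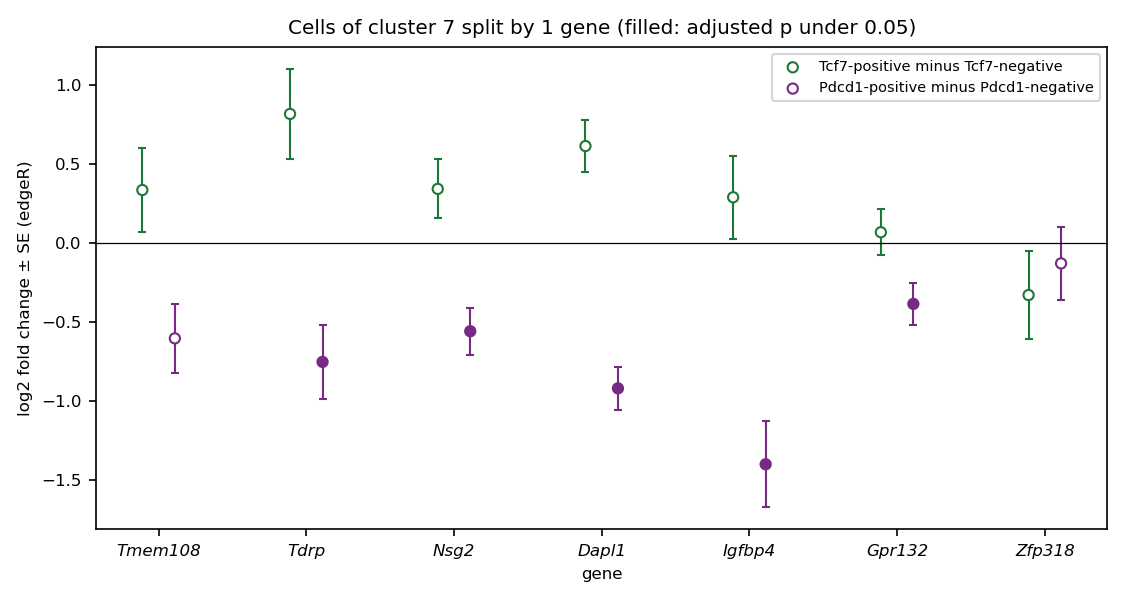
Log2 fold change (y axis, ± SE from edgeR) of each gene (x axis) between cells of cluster 7 with and without a UMI of Tcf7 (green) or Pdcd1 (purple), where a filled point passed an adjusted p of 0.05. Igfbp4 has the lowest purple value, -1.40, and the green points are all open.

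Which of the 7 genes shared cells of cluster 7 the most depended on depth. Without thinning the highest ratio was that of Dapl1 and Igfbp4: 118 cells held both against 69.4 expected, a ratio of 1.70, while 79 held Tdrp and Igfbp4 against 50.7, a ratio of 1.56. The other 19 pairs had ratios of 0.951 to 1.3, and pairs with Gpr132 lay between 0.951 and 1.10. After thinning, 18 cells held Dapl1 and Igfbp4 against 12.3 expected, a ratio of 1.46. Higher ratios then belonged to Tmem108 and Tdrp (1.88, on 11 cells), Tdrp and Igfbp4 (1.75, on 10), Tmem108 and Igfbp4 (1.71, on 8) and Tmem108 and Zfp318 (1.57, on 8). These ratios are descriptions, and the part of unequal depth between cells in them was not tested.

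Likeness was measured as the correlation of log2(CPM + 1) across 66 sums of 1 library and 1 cluster, among 8250 genes. The points share libraries and depth, so r is given without a p. Tmem108 was most like Lef1 (0.905), Rragd (0.898) and Cnr2 (0.891), and Tdrp most like Socs3 (0.922), Crlf3 (0.909) and Inadl (0.905). Nsg2 was most like Inadl (0.902), Tdrp itself (0.889) and Crlf3 (0.865). Igfbp4 was most like Il6ra (0.746), Ifngr2 (0.732) and Cxcr5 (0.725), and Dapl1 most like Bmyc (0.682), Pdlim1 (0.664) and Ccr7 (0.659). Gpr132 was most like Phxr4 (0.935), Tle4 (0.901) and Smad7 (0.894), and Zfp318 like Baz2a (0.781), Syne1 (0.766) and Parp3 (0.743). The names depended on the measure: by rank correlation over the same sums, 1 or none of the 3 names remained for each gene.

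The labels set male against female hosts. Over all cells outside innate-like cluster 2, none of the 7 genes passed the test (0.0902% of 12194 genes called), although all 7 had higher means in males. The log2 fold changes were 1.63 for Tmem108, 1.52 for Tdrp, 1.38 for Dapl1, 1.23 for Igfbp4, 1.11 for Nsg2, 0.25 for Gpr132 and 0.14 for Zfp318, with adjusted p from 0.219 to 0.784 in edgeR, and 5 of the 7 had an unadjusted p under 0.05, as did 1020 of all 12194 genes. DESeq2 called Tdrp, Nsg2 and Tmem108 here, among 120 genes in all. In these sums alone, more cells of a type and more RNA per cell cannot be told apart. Cluster 7 held 713 of 6305, 269 of 3282 and 422 of 7156 cells in male libraries 1, 3 and 4. In female libraries 2, 5 and 6 it held 126 of 2892, 126 of 4942 and 96 of 2121 cells. The part of these cell numbers in the result was not tested. Of the 15 naive and central memory genes 14 had a higher mean in males and none was called (median 0.44).

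Within cluster 7, only Zfp318 passed, in a comparison that called 0.168% of 8324 genes. It stood at 30.7, 30.6 and 31.2 CPM in male libraries 1, 3 and 4 and at 14.5, 18.6 and 16.0 CPM in female libraries 2, 5 and 6. The male libraries lay within 1 CPM of each other and all above the female ones (30.8 ± 0.359 against 16.4 ± 2.08 CPM, log2 fold change 0.99, SE 0.208, adjusted p = 0.0393). The female libraries held 48 UMIs of Zfp318 in all. Leaving out any one library kept the size (0.95 to 1.04) and lost the call (adjusted p from 0.0537 to 0.189), and DESeq2 did not call it (0.99, adjusted p = 0.291). The 6 markers of CD4 and regulatory T cells summed to 14.4 to 18.0 CPM in males and 25.5 to 37.4 CPM in females, with Cd4, Foxp3 and Ccr8 at 0 in both sexes. Il2ra was the highest of them in this cluster, and the part of these markers was not tested. No gene of the naive and central memory list was called (median 0.002).

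The other 6 genes did not pass within cluster 7. Tmem108 stood at 30.6, 30.6 and 23.0 CPM in male libraries 1, 3 and 4 and at 34.0, 31.4 and 35.3 CPM in female libraries 2, 5 and 6, so that the male libraries were the lower without overlap (log2 fold change -0.18, SE 0.192, adjusted p = 0.916). The values of Dapl1, Igfbp4, Nsg2, Tdrp and Gpr132 overlapped between the sexes, with log2 fold changes of -0.06, 0.33, 0.34, -0.16 and -0.29.

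Outside clusters 2 and 7, none of the 7 was called (0.0911% of 12075 genes). Tmem108 stood at 3.48, 2.78 and 1.56 CPM in male libraries 1, 3 and 4 and at 0.683, 0.304 and 0.961 CPM in female libraries 2, 5 and 6 (log2 fold change 2.08, SE 0.428, adjusted p = 0.220). Tdrp stood at 6.11, 3.79 and 3.34 CPM in those male libraries and at 1.21, 1.03 and 2.01 CPM in the female ones (log2 fold change 1.68, SE 0.289, adjusted p = 0.132). For both, and for Nsg2 and Dapl1, each male library lay above each female library. Here and in the other comparisons, how many of all genes separated without overlap was not counted, so such separation is given as a description. Dapl1 was set apart by male library 1, at 43.9 CPM against 14.6 and 17.3 CPM in the other male libraries and 7.60 to 10.4 CPM in females (log2 fold change 1.43, adjusted p = 0.666). The share of cells outside clusters 2 and 7 with a Tcf7 UMI was 31.6%, 23.5% and 21.9% in males and 13.4%, 9.70% and 17.5% in females. The 6 markers of CD4 and regulatory T cells summed to 144 to 167 CPM in males and 184 to 243 CPM in females. In every deposited cluster the highest of them was Il2ra, with a mean of 188 of a summed 212 CPM in cluster 3. The mean of Cd4 was at most 0.953 CPM, in cluster 6. The 3 measured gamma-delta markers, with Cd163l1 the highest in every deposited cluster, summed to 1.58 to 3.11 CPM in males and 0.811 to 1.31 CPM in females. The part of these in the result was not tested.

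**Figure D5:**
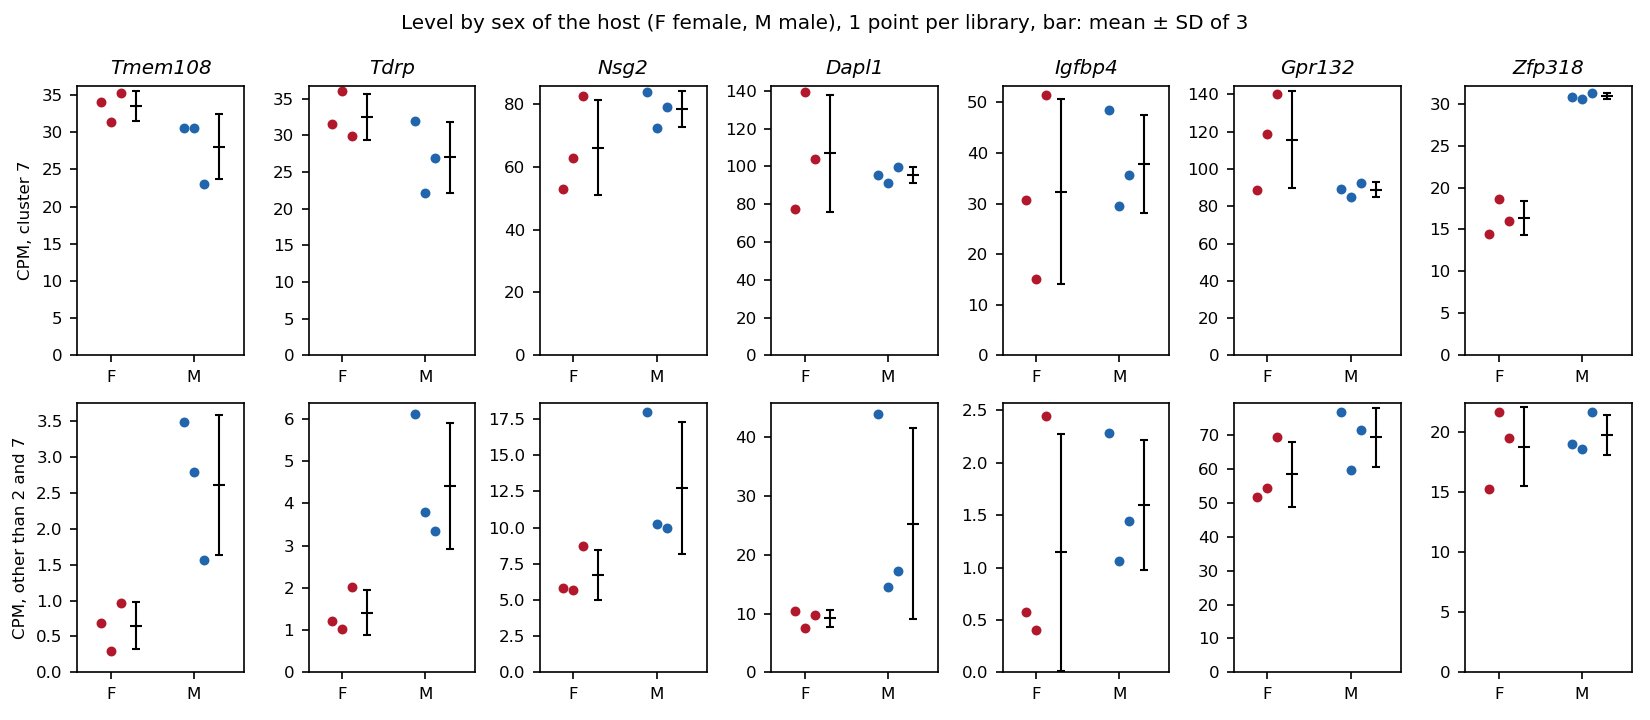
Level of each gene (y axes, CPM, linear from 0) in cluster 7 (upper row) and in clusters other than 2 and 7 (lower row) by sex of the host, with 1 point per library and the mean ± SD of 3. Zfp318 separates by sex in the upper row alone, and Tmem108 and Tdrp are higher in all 3 male libraries in the lower row.

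The sex difference itself differed between cluster 7 and the cells outside clusters 2 and 7 for 4 of the 7 genes (interaction in edgeR, 0.218% of 11478 genes called). Coded as the male minus female difference in cluster 7 less that outside, it was -2.25 for Tmem108 (SE 0.320, adjusted p = 2.52e-05) and -1.86 for Tdrp (SE 0.281, adjusted p = 6.84e-05), and these calls were kept in 10 of 10 alternatives. It was -0.51 for Gpr132 (SE 0.118) and 0.96 for Zfp318 (SE 0.222), each with an adjusted p of 0.0307. The call of Gpr132 was lost without any one of libraries 1, 4, 5 and 6 (-0.50 to -0.45, adjusted p from 0.095 to 0.339) and that of Zfp318 without any one of 1, 5 and 6 (0.89 to 0.92, adjusted p from 0.1 to 0.247). DESeq2 called neither (adjusted p of 0.173 and 0.498). Of the stem-like list 2 of 13 genes differed, Tnfsf8 at -1.05 and Slamf6 at -0.58. The cells outside clusters 2 and 7 were pooled with no term for cluster, and the part of their mix in the interaction was not tested. In these pooled cells Tmem108 had 66 UMIs in females and 349 in males.

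Cluster 1, the third highest in Dapl1 after clusters 7 and 9, held 221 to 1222 cells per library and gave 2 calls among the 6 genes tested (3.8% of 9234 genes called, 1.6% higher), with Igfbp4 too low. Tmem108 stood at 5.19, 5.61 and 3.03 CPM in male libraries 1, 3 and 4 and at 0, 0.705 and 1.22 CPM in female libraries 2, 5 and 6, where a count of 0 in library 2 allows up to 1.29 CPM. All male libraries were higher, on 60 UMIs against 5 (log2 fold change 2.82, SE 0.605, adjusted p = 0.0122), and the call was lost without female library 5 (3.07, adjusted p = 0.108). Tdrp stood at 19.0, 13.0 and 9.60 CPM in males and 7.29, 2.82 and 4.27 CPM in females, again without overlap (log2 fold change 1.65, SE 0.367, adjusted p = 0.0239). Without any one of libraries 1, 3, 5 and 6 that call was lost (1.22 to 1.67, adjusted p from 0.0646 to 0.178).

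Nsg2 (1.09, adjusted p = 0.118) and Dapl1 (1.29, adjusted p = 0.292) were higher in each male library of cluster 1 and did not pass. Nsg2 passed with DESeq2 (adjusted p = 0.0195), with no filter on low counts (1.82e-06) and without male library 4 (1.38, adjusted p = 0.000557), and Dapl1 without male library 4 (1.59, adjusted p = 0.0119). In the same cells 5 of the 15 naive and central memory genes were higher in males, among them Bcl2 at 1.04 and Lef1 at 0.66, with a median of 0.56 against -0.0001 over all genes tested. Of the 13 stem-like genes 12 were tested, with Tnfsf8 higher in males (1.48) and Cd200 and Cd28 lower (-1.25 and -0.35), and a median of 0.32. Of the cells of cluster 1, 57.2%, 56.9% and 38.5% had a Tcf7 UMI in males and 39.0%, 28.3% and 53.4% in females, which overlap. Pdcd1 stood at 131 to 192 CPM in males and 202 to 381 CPM in females without overlap. The markers of CD4 and regulatory T cells summed to 35.5 to 41.0 CPM in males and 65.3 to 84.2 CPM in females (Cd4 at 0 in females). Those of fibroblasts and endothelium summed to 25.6 to 30.5 and 13.7 to 26.2 CPM (Dcn at 0 in both). In cluster 1 the highest gene was Il2ra for the first list and Pecam1 for the second. The part of these markers was not tested. Within innate-like cluster 2 no member was called (0.358% of 8935 genes). There Dapl1 stood at 13.3, 13.0 and 11 CPM in males and 6.50, 9.29 and 5.17 CPM in females without overlap (log2 fold change 0.95, SE 0.272, adjusted p = 0.214), Nsg2 had 0.43 (adjusted p = 0.231), and the other 4 genes tested overlapped.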

How the data were processed

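The deposited table holds raw UMI counts per gene and cell, and a second deposited file gives each cell's sex label and cluster. Cell Ranger, Seurat and the mm10 build appear, without versions, in the submitters' processing notes. How cells were filtered and doublets treated is not given in the sources used here. No doublets were removed for these results. The 7 genes and all lists were chosen with earlier results of these data known. Counts were summed per library (at least 10 cells a sum) and tested with edgeR 4.0.16 in R 4.3.3 (quasi-likelihood test, filterByExpr, TMM, Benjamini-Hochberg over all genes tested, threshold 0.05). Splits by a gene kept the library as a block and left that gene out. The UMI total and the number of genes of each of the 26698 cells equalled those in the deposited cell table. The fits were tested on simulated data. Named are all 7 genes, the 3 most like each, and up to 4 genes of each list by p-value. DESeq2 1.42.0, RLE scaling, no filter on low counts, each library left out, shared barcodes left out, clusters 6 and 10 left out, depth matching and no block were alternatives. A further split of cluster 7 is not reported here. A floor stands for 3 counts. Intervals and floors cover counting error only. Shares of cells were compared after thinning to 2000 UMIs.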

Additional observations from a re-analysis of the deposited data

Results flagged for a closer look

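The male minus female difference in cluster 7 differed from that in cells outside clusters 2 and 7 for 4 of the 7 genes, by an interaction test in edgeR on the log2 scale. For Tmem108 the difference between the 2 effects was -2.249 (adjusted p = 2.52e-05), from 28.0 ± 4.37 CPM in males and 33.6 ± 2.01 CPM in females within cluster 7, and 2.61 ± 0.972 and 0.650 ± 0.330 CPM outside (SD, n = 3 libraries each). For Tdrp it was -1.856 (adjusted p = 6.84e-05), from 27.0 ± 4.85 and 32.5 ± 3.15 CPM within cluster 7, and 4.42 ± 1.49 and 1.42 ± 0.522 CPM outside. For Gpr132 it was -0.509 (adjusted p = 0.0307), from 88.9 ± 3.97 and 116 ± 25.9 CPM within cluster 7, and 69.3 ± 8.69 and 58.4 ± 9.52 CPM outside. For Zfp318 it was 0.958 (adjusted p = 0.0307), from 30.8 ± 0.359 and 16.4 ± 2.08 CPM within cluster 7, and 19.8 ± 1.67 and 18.8 ± 3.28 CPM outside. The calls of Gpr132 and Zfp318 were lost with DESeq2 (adjusted p of 0.173 and 0.498) and when any one of 4 and 3 libraries, respectively, was left out, while those of Tmem108 and Tdrp were kept in 10 of 10 alternatives. Outside clusters 2 and 7, the share of cells with a Tcf7 UMI was 21.9% to 31.6% in male libraries and 9.70% to 17.5% in female ones, and its part in these differences was not tested.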

How the results depend on the processing

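The DESeq2 fit called 120 genes and 3 of the 7 in the sex comparison outside cluster 2, 84 genes and 3 of the 7 outside clusters 2 and 7, and 0 of the 7 within cluster 7. It called 2 of the 7 (Tmem108 and Tdrp) in the interaction, where its total over all genes is not given here. By DESeq2, 3 genes were called in the Tcf7 split within cluster 7, and 336 genes and 2 of the 7 (Dapl1 and Igfbp4) in the Pdcd1 split. With no filter on low counts, 42 genes were called between the sexes in cluster 7, 672 in cluster 1, 66 in cluster 2, 53 in the interaction and 44 (with 1 of the 7, Dapl1) in the Tcf7 split of cluster 7. RLE scaling moved no count of calls by over 1.5 times.

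Without the replicate block, the Tcf7 split called 2887 genes outside clusters 2 and 7 (6 of the 7) and 3 within cluster 7, and the Pdcd1 split 322 genes (2 of the 7, with Tdrp, Igfbp4 and Gpr132 lost at adjusted p of 0.0734, 0.0896 and 0.0938). No paired analysis was possible for the sexes because the library numbers of males and females do not overlap and are tied to no labelled replicate.

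With cells matched for depth, 25 genes were called in the Tcf7 split of cluster 7 and 150 (1 of the 7) in the Pdcd1 split, where Gpr132 had the opposite sign, 0.091. With the data in view, single clusters were added: cluster 1 alone called 652 genes (3 of the 7) in the Tcf7 split, with Zfp318 at -0.186, and cluster 9 alone 1250 genes, with Zfp318 at -0.036.

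Leaving out 1 library at a time gave 8 to 53 genes and 0 of the 7 within cluster 7, 64 to 710 genes and 0 to 4 of the 7 in cluster 1, 12 to 47 genes in cluster 2, and 5 to 68 genes and 2 to 4 of the 7 in the interaction. It gave 3 to 13 genes in the Tcf7 split of cluster 7, and 437 to 677 genes and 2 to 6 of the 7 in the Pdcd1 split. Log2 fold changes whose sign turned without 1 library ranged, between the sexes, from -0.182 to 0.117 for Dapl1 and from -0.005 to 0.733 for Igfbp4 in cluster 7, from -0.056 to 0.186 for Zfp318 outside clusters 2 and 7 and from -0.057 to 0.123 for Zfp318 in cluster 1. In cluster 2 they ranged from -0.249 to 0.288 for Tmem108, from -0.061 to 0.131 for Gpr132 and from -0.103 to 0.169 for Zfp318, and in the interaction from -0.852 to 0.105 for Igfbp4. In the splits of cluster 7, Zfp318 ranged from -0.624 to 0.01 by Tcf7 and from -0.308 to 0.055 by Pdcd1. The cause was not tested. Removing shared barcodes, or clusters 6 and 10, moved no count of calls by over 1.5 times. Depth limits Igfbp4, which was too low to be tested between the sexes in cluster 1.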
